A study of Mus musculus with 40 samples.

Results

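Tanycytes, ependymal cells and choroid plexus epithelium line or fill the brain ventricles, and 31 genes that mark these 3 cell classes were followed through hypothalamic astrocyte ribosome profiles of mice. The genes were taken by symbol from a list of 8 tanycyte, 14 ependymal and 9 choroid plexus markers. All 31 were found in the deposited count table, which holds 26792 genes.

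The mice carried Aldh1l1 eGFP-L10a, a transgene in which the Aldh1l1 promoter, active chiefly in astrocytes, drives ribosomal protein L10a fused to eGFP. Tagged ribosomes were pulled down from dissected hypothalami (translating ribosome affinity purification, labelled IP), and what the pull-down left behind was sequenced as the supernatant (labelled SN). The 3 groups were sham-operated mice on chow (7 samples), sham-operated mice on high-fat diet (HFD, 6 samples) and orchiectomised mice on HFD (7 samples), with 4 weeks of feeding. Testis removal is written GDX or ORX in the labels. Each sample gave both fractions, so 40 libraries entered, and every group, the chow group included, carried the transgene. The labels give no age and do not say whether 1 sample number is 1 mouse, so p-values speak only of variation among the samples at hand. Orchiectomy was compared on HFD only.

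Tanycytes are radial cells on the floor and lower walls of the third ventricle that reach into the hypothalamus, sense nutrients and hormones of the cerebrospinal fluid, and control the supply of active thyroid hormone. Multiciliated ependymal cells cover the rest of the ventricle wall, and their beating cilia, built under the transcription factors Foxj1 and the RFX family, move the fluid. Choroid plexus epithelium hangs in the ventricles, secretes the fluid, and in the mature brain makes transthyretin (Ttr), a carrier of thyroid hormone. Astrocytes share a radial glial origin with tanycytes and ependymal cells, and tanycytes are known to express several astrocyte genes.

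Start-site sequences of 3 ependymal genes are shown because these genes share a cilium gene motif and yet stood on different sides of the fraction comparison described further on. RefSeq promoters on GRCm38.p6, from 250 bases before to 50 bases after a transcription start, were matched for 22 of the 31 genes. Capitals mark GTTGCC or its reverse complement GGCAAC, the core of the half-site that RFX factors are known to bind. It was searched on both strands, and no other motif was searched. Tekt1 (chr11:72361833-72362132, minus strand, 1 of 2 listed starts) was higher in the pull-down, Ccdc153 (chr9:44240427-44240726, plus strand) was lower, and Dynlrb2 (chr8:116504765-116505064, plus strand) did not pass the test.
Tekt1: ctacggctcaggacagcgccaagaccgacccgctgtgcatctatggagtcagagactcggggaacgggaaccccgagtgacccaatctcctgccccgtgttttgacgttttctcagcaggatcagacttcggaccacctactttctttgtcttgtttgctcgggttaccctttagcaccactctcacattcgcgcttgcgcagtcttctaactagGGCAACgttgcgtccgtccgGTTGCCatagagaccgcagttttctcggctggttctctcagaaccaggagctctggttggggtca
Ccdc153: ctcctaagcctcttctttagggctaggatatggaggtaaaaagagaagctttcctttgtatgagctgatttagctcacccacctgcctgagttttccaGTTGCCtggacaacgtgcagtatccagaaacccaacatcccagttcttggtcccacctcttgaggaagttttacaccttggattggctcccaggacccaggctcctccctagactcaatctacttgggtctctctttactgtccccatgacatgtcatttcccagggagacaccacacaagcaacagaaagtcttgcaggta
Dynlrb2: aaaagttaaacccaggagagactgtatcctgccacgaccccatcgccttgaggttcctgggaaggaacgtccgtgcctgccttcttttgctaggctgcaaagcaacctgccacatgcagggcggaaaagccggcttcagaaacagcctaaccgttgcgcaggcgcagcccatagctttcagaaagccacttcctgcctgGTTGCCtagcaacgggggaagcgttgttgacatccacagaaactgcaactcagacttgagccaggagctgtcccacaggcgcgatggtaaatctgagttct
The letters were present in at least 1 promoter of 5 of 12 matched ependymal genes (41.7%), of 3 of 4 choroid plexus genes and of 0 of 6 tanycyte genes. Among 35 motile cilium genes from a separate list, 17 (48.6%) had them. Over all RefSeq promoters of this length the share was 14.1% of 27025 genes. A gene with more listed starts had more windows searched. Counted by promoter, the shares were 31.2% of 16 ependymal, 50% of 8 choroid plexus and 0% of 7 tanycyte promoters. That of the motile cilium list was 45% of 40, and over all promoters it was 12.5% of 32851. The Otx2 windows that held the letters overlap. Such a match describes the letters in the window and not a bound site.

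All 31 genes were detected, meaning at least 1 count in 1 library, and 21 had counts in each of the 40 libraries. Levels are CPM, counts scaled to a common library size by TMM. Each count is a tag near the end of a message, so no division by gene length was applied. In the pull-downs the median level over 20 libraries ran from 0 CPM to 155 CPM across the 31 genes, and in the supernatants from 0 CPM to 195 CPM. Only 8 genes in the pull-downs and 2 in the supernatants had a median of at least 10 CPM, and 11 and 5 were under 1 CPM. Ependymal genes summed to a median of 76.3 CPM per pull-down and 62.8 CPM per supernatant, and choroid plexus genes to 200.4 CPM and 216 CPM. Tanycyte genes summed to 192 CPM and 54.2 CPM, and Dio2 made up most of the pull-down sum.

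A filter on low counts left 27 genes for testing across all libraries and in the supernatants (8 tanycyte, 13 ependymal, 6 choroid plexus) and 22 in the pull-downs (7, 10 and 5). Dnah11, a dynein motor of cilia, with 111 counts in all, and 3 choroid plexus genes passed no filter. These were Folr1, the folate receptor of the plexus (215 counts), Aqp1, its water channel (116 counts), and Kcne2, a potassium channel subunit (15 counts in all, from 2 pull-downs and 6 supernatants). In addition Gpr50, Ccdc153, Tmem212, Ak7 and Sostdc1 were tested in the supernatants but were too low in the pull-downs. Of the genes that define the plexus, Kcne2 was near 0, and Ttr had medians of 0.952 CPM in the supernatants and 3.375 CPM in the pull-downs. Sostdc1 had medians of 2.78 CPM in the supernatants and 0.228 CPM in the pull-downs. Enpp2, Clic6 and Otx2, which other brain cells can also express, made up most of the class sum. The name choroid plexus is used below for the list and does not say whether the tissue was present in these samples.

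Libraries differed in ways that touch the results. Pull-downs had 7714834 to 20792175 counts and supernatants had 8739276 to 12931869, and in 4 pull-downs (sham chow 8, sham HFD 1, GDX HFD 11 and 22) the ribosomal repeat gene Gm42418 took over 10% of the counts. Supernatants also differed in astrocyte RNA: 10 astrocyte markers summed to between 1542 and 4450 CPM, and over 3000 CPM in 6 libraries (GDX HFD 22, 6 and 11, sham HFD 1, sham chow 8 and 23), among them the samples of all 4 pull-downs rich in Gm42418. In the pull-downs the same sum was 36250 to 55100 CPM.

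The first question was which of these genes the astrocyte pull-down carried. The 3 classes split within themselves. Of 27 genes tested with edgeR at an adjusted p under 0.05, 10 were higher in the pull-down, 13 were lower and 4 did not pass. That background is high, since 86.8% of all 15629 genes tested passed, 43.1% higher and 43.7% lower. At an unadjusted p under 0.05 there were 23 of these genes and 87.1% of all genes. The share of ventricular genes called was therefore near that of any gene, and the size and direction of each gene carry the information. With at least 2-fold change required, 6 genes were higher and 11 lower, against 22.8% and 26% of all genes. Median log2 fold changes were -0.56 for tanycyte genes, -0.52 for ependymal genes and 1.49 for choroid plexus genes, and -0.01 over all genes. TMM places the bulk of genes near 0, so the median over all genes and the even split of directions are largely set by the scaling. The sign of a small change depends on that zero point. Mitochondrial genes took 0.643% to 1.63% of the counts in pull-downs and 19.2% to 27.8% in supernatants. In a bulk sample, fewer cells of a type and less RNA per cell cannot be told apart.

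**Figure D1:**
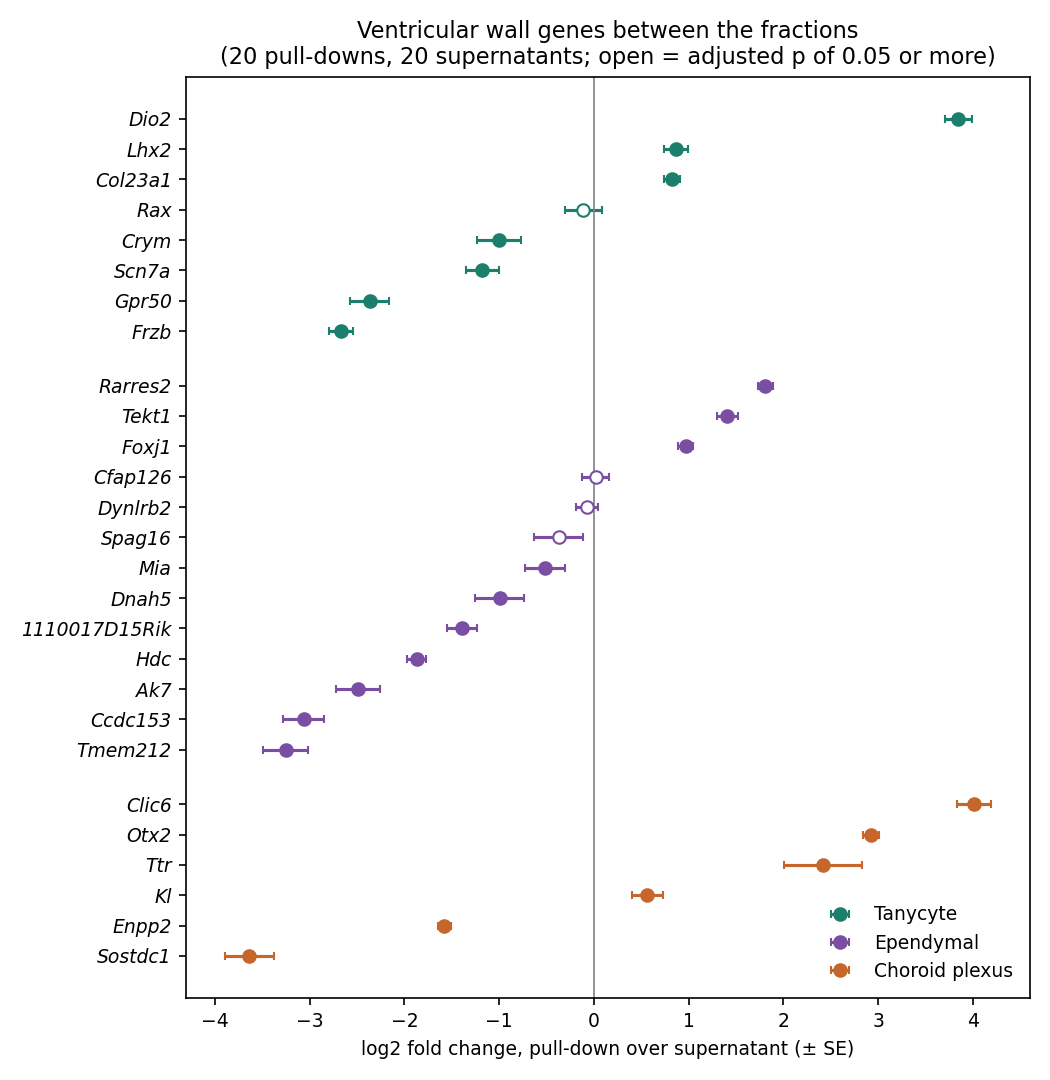
The plot shows the log2 fold change of pull-down over supernatant (horizontal axis, bars are SE) for the 27 genes tested, grouped by class and ordered by size, with open circles for the 4 genes that did not pass. Each class spans both sides of 0, from Frzb to Dio2 among tanycyte genes, from Tmem212 to Rarres2 among ependymal genes and from Sostdc1 to Clic6 among choroid plexus genes.

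Among tanycyte genes, Dio2, Lhx2 and Col23a1 were higher in the pull-down, and Frzb, Gpr50, Scn7a and Crym were lower. Dio2 (chr12:90724552-90738438, minus strand, GENCODE M21 on GRCm38), the deiodinase that activates thyroid hormone, is expressed by astrocytes as well as tanycytes. Its level had a lowest, median and highest value of 120, 155 and 222 CPM in the 20 pull-downs and 6.54, 8.67 and 23.3 CPM in the 20 supernatants. The fractions did not overlap, and the log2 fold change was 3.85 ± 0.14 (SE, adjusted p = 4.74e-26). Lhx2, a homeobox factor that maintains tanycyte identity, had 5.14, 12.8 and 21.95 CPM against 4.62, 7.11 and 10.2 CPM. These ranges overlapped, but the pull-down was the higher fraction in 19 of 20 samples (0.86 ± 0.12, adjusted p = 2.91e-08). Col23a1, a membrane-bound collagen, was higher by 0.82 ± 0.09 (adjusted p = 1.89e-11), with median levels of 16.6 CPM for pull-downs and 9.40 CPM for supernatants.

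The 4 lower tanycyte genes encode a secreted signal inhibitor, a receptor, a channel and a hormone-binding protein. Frzb (chr2:80411970-80447625, minus strand), a secreted inhibitor of Wnt signalling, had 0.428, 1.38 and 2.6 CPM in the pull-downs and 6.02, 9.36 and 13.2 CPM in the supernatants, without overlap (-2.67 ± 0.13, adjusted p = 1.39e-22). Gpr50, an orphan relative of the melatonin receptors, had 0, 0.334 and 0.671 CPM against 0.986, 1.73 and 2.74 CPM (-2.37 ± 0.21, adjusted p = 1.15e-13). It too showed no overlap, and it was lower in the pull-down of each of the 20 samples. Scn7a, a sodium-sensing channel of glia in the circumventricular organs, was lower by a log2 fold change of -1.18 ± 0.18 (adjusted p = 1.16e-07) and Crym, a thyroid hormone binding protein that neurons also make, by -1.001 ± 0.232 (adjusted p = 0.000148). Crym ranged from 1.66 to 14.7 CPM in the pull-downs and from 3.18 to 19.1 CPM in the supernatants.

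Rax, the homeobox factor most restricted to tanycytes in the adult hypothalamus, did not pass (-0.11 ± 0.20, adjusted p = 0.587). It had 0.321, 1.025 and 2.14 CPM in the pull-downs and 0.457, 1.14 and 1.74 CPM in the supernatants, and the pull-down was higher in 9 of 20 samples. The authors' second table, deposited under the name TPM, lists Rax at 0 in all libraries where the count table holds 483 counts, so its values here rest on 1 of 2 tables that differ.

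A wider list of 16 further tanycyte genes was called throughout, 10 of them higher and 6 lower, where 43.1% and 43.7% of all genes were. The list's median was 1.80 on the log2 scale. Tgfb2, a growth factor (2.00 ± 0.06), and Vim, the intermediate filament of radial glia (1.85 ± 0.08), were among the higher genes with the smallest p. Trhde, the enzyme that degrades thyrotropin-releasing hormone (-3.50 ± 0.20), Fgf10, a growth factor of the tanycyte stem zone (-2.19 ± 0.16), and Vcan, a matrix proteoglycan (-2.19 ± 0.21), had the smallest p among the lower ones. Astrocytes are known to express Vim, and neurons Trhde. All 10 astrocyte markers were higher, with a median of 4.78 and a lowest of 3.30, and all 10 neuron markers were lower, with a median of -3.69. Dio2 lay within the range of the astrocyte markers and Trhde within that of the neuron markers. The neuron markers summed to between 229 and 683 CPM per pull-down and between 3641 and 4971 CPM per supernatant, with none at 0. What part these other cells have in the values of genes they share was not tested.

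Among ependymal genes, 3 were higher in the pull-down, 7 lower, and 3 did not pass. Rarres2 (chr6:48569696-48572789, minus strand), which encodes the secreted chemoattractant chemerin and is also expressed by tanycytes and astrocytes, had 21.1, 34.1 and 41.3 CPM in the pull-downs and 6.67, 9.35 and 12.8 CPM in the supernatants. The fractions did not overlap (1.81 ± 0.08, adjusted p = 2.05e-24). Tekt1, a tektin filament protein of ciliary microtubules, had 3.85, 6.26 and 8.96 CPM against 1.35, 2.31 and 3.64 CPM, also without overlap (1.41 ± 0.11, adjusted p = 5.53e-15). Foxj1 (chr11:116330704-116335399, minus strand), the master regulator of motile cilia, had 12.0, 18.2 and 26 CPM against 5.04, 9.56 and 11.3 CPM. It was higher in the pull-down of all 20 samples without overlap (0.97 ± 0.08, adjusted p = 1.08e-14).

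The 3 ependymal genes that were furthest below are genes of ciliated cells. Tmem212, a membrane protein of ciliated cells, had 0, 0.267 and 1.18 CPM in the pull-downs and 1.62, 3.01 and 4.61 CPM in the supernatants (-3.26 ± 0.24, adjusted p = 2.35e-16). Ccdc153 (chr9:44240676-44247306, plus strand), a coiled-coil protein of the ciliary axoneme, had 0, 0.566 and 1.63 CPM against 3.85, 5.31 and 7.96 CPM (-3.07 ± 0.22, adjusted p = 9.90e-17). Ak7, an adenylate kinase of cilia, had 0, 0.2465 and 0.856 CPM against 0.965, 1.73 and 2.73 CPM (-2.49 ± 0.23, adjusted p = 6.19e-13). In none of these 3 genes did a pull-down reach the lowest supernatant.

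Hdc, the histidine decarboxylase, was lower by a log2 fold change of -1.87 ± 0.10 without overlap, from 2.39 to 6.83 CPM in the pull-downs and from 12.3 to 22.9 CPM in the supernatants. Histamine neurons of the posterior hypothalamus are known to express this gene. The ependymal marker 1110017D15Rik had -1.40 ± 0.16, Dnah5, the motor of the outer dynein arm, -0.99 ± 0.26, and Mia, a secreted protein, -0.52 ± 0.21 (adjusted p = 0.0194). Dnah5 and Mia had medians of 1.01 and 0.688 CPM in the pull-downs, and Mia lost its call without the filter on low counts (adjusted p = 0.0535). Cfap126, which positions basal bodies (0.02 ± 0.14), Dynlrb2, a dynein light chain (-0.07 ± 0.11), and Spag16, of the central pair of the axoneme (-0.37 ± 0.26, adjusted p = 0.174), did not pass. Dnah11, below the filter, had median levels of 0.170 CPM for pull-downs and 0.290 CPM for supernatants.

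Cilium genes outside the list gave more lower than higher calls. Of 43 further motile cilium genes 34 were tested, 6 were higher and 24 lower, and the median log2 fold change was -1.62. Over all genes tested, 43.1% were called higher and 43.7% lower. The summed level of the 43 genes was less apart, with medians of 109.4 CPM per pull-down and 127.5 CPM per supernatant. The higher ones included Dnaic1, an outer arm intermediate chain (3.0 ± 0.15), and Tekt4, another tektin (2.54 ± 0.19). The lower ones were led by Fam183b (-2.50 ± 0.13), Dnah1, an inner arm motor (-2.62 ± 0.14), and Lrrc6, a dynein assembly factor (-2.81 ± 0.19). Of 10 regulators of multiciliation, 3 had enough counts: Rfx3 (1.57 ± 0.08) and Rfx2 (1.57 ± 0.20), transcription factors also active outside ciliated cells, were higher, and Deup1, of the deuterosomes that multiply centrioles (-2.45 ± 0.28), was lower.

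**Figure D2:**
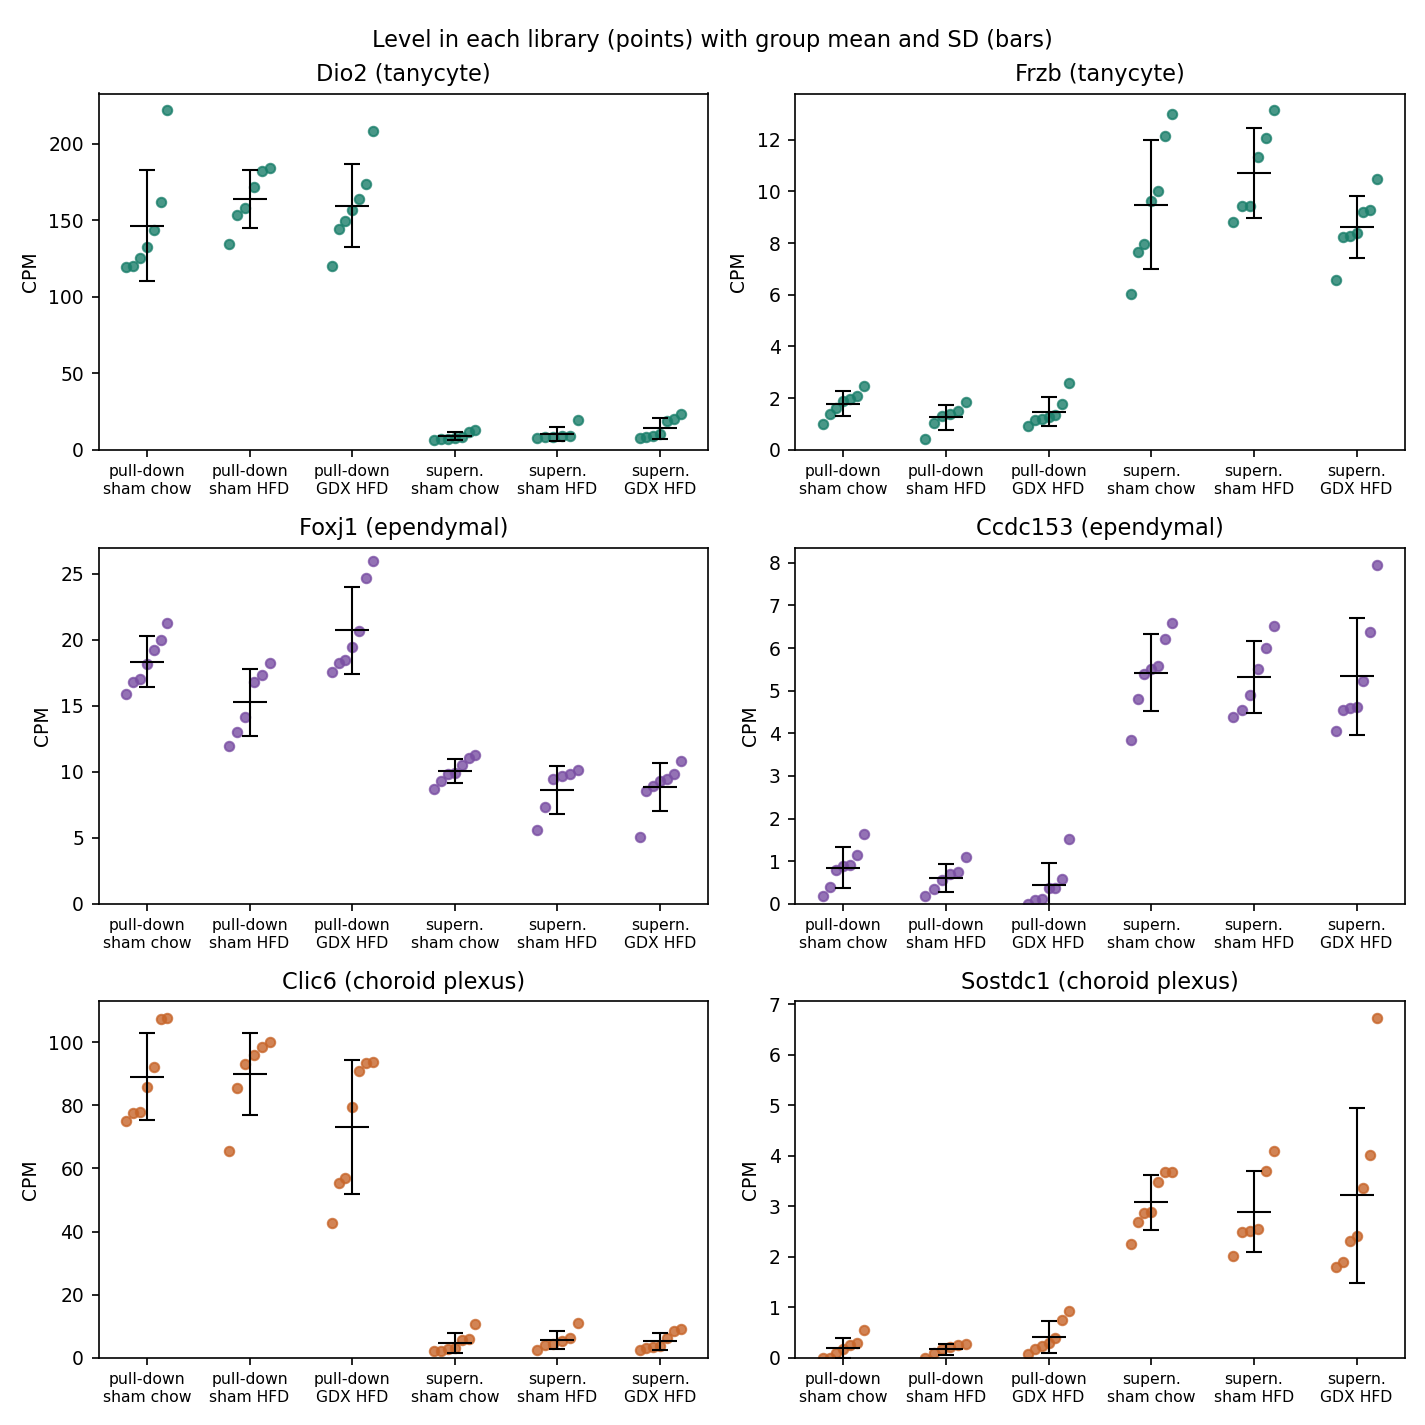
Each point is 1 library's level in CPM (vertical axis) for 6 genes, 2 per class, in the 3 groups of each fraction, with points spread sideways by rank and black bars for the mean and SD of 7, 6 and 7 libraries. Dio2, Foxj1 and Clic6 sit higher in all pull-downs than in any supernatant, Frzb, Ccdc153 and Sostdc1 lower, and the 3 treatment groups of a fraction overlap in every panel.

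The choroid plexus list split most widely. Clic6 (chr16:92485736-92541243, plus strand), an intracellular chloride channel, had 42.7, 88.4 and 108 CPM in the pull-downs and 2.19, 4.25 and 11 CPM in the supernatants, without overlap (4.01 ± 0.18, adjusted p = 1.82e-22). Otx2, a homeobox factor of the plexus, had 26.7, 34 and 39.4 CPM against 2.78, 4.11 and 6.62 CPM (2.92 ± 0.08, adjusted p = 4.57e-30). The count table holds 8850 counts of Otx2 where the authors' second table holds 59, 58 of them in pull-downs, so the level of Otx2 depends on the table while the higher fraction is the same in both. Kl, the anti-ageing protein Klotho, was higher by 0.56 ± 0.16 (adjusted p = 0.00168), with 15 of 20 samples in that direction and overlapping ranges. Folr1, below the filter, had medians of 0.624 and 0.267 CPM, and where another setting let it into the test it was called higher, with log2 fold changes between 1.68 and 1.93.

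Sostdc1 (chr12:36314139-36318452, plus strand), a secreted inhibitor of BMP and Wnt signals, was the furthest below: 0, 0.228 and 0.932 CPM in the pull-downs and 1.80, 2.78 and 6.72 CPM in the supernatants, without overlap (-3.64 ± 0.26, adjusted p = 1.69e-16). Enpp2 (chr15:54838901-54952892, minus strand), the enzyme autotaxin that makes lysophosphatidic acid, had 49, 65.2 and 96.4 CPM against 148, 195 and 244 CPM (-1.58 ± 0.07, adjusted p = 3.81e-23). Oligodendrocytes are known to express Enpp2 strongly, and all 8 oligodendrocyte markers were lower, by a median of -3.63 on the log2 scale. They summed to between 781 and 1369 CPM per pull-down and between 7373 and 11050 CPM per supernatant. The part of oligodendrocytes in the Enpp2 values was not tested. Enpp2 also differs a little between the tables, with 57160 counts in one and 56196 in the other. Kcne2 and Aqp1 were at or near the floor in both fractions, and no fold is given.

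Of 30 further choroid plexus genes 20 were tested, 10 higher and 10 lower, where 43.1% and 43.7% of all genes were. Their median was -0.07. Slc31a1, a copper transporter (1.46 ± 0.06), Col9a3, a collagen chain (2.43 ± 0.11), and Igfbp2, a binding protein of insulin-like growth factors (2.93 ± 0.18), were the first 3 on the higher side. Prlr, the prolactin receptor (-2.74 ± 0.12), Lmx1a, a homeobox factor of the roof plate (-3.50 ± 0.16), and Vat1l (-3.24 ± 0.17) were the first 3 on the lower side. Markers of other cells of the region moved too: all 8 endothelial markers were higher (median 2.04), all 8 microglia markers lower (median -2.77), and of 10 mural and fibroblast markers 7 were higher and 2 lower. Their part in the values of the choroid plexus genes was not tested.

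In all, 6 genes did not overlap on the higher side (Dio2, Rarres2, Tekt1, Foxj1, Clic6 and Otx2) and 8 on the lower side (Frzb, Gpr50, Hdc, Ak7, Tmem212, Ccdc153, Enpp2 and Sostdc1). Over all genes tested, 18.3% and 18.9% had no overlap in these directions.

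Ttr was also higher in the pull-down (2.42 ± 0.41, adjusted p = 1.31e-06), but with the widest error of the 27 genes. It had 0.364, 3.375 and 40.9 CPM in the pull-downs and 0.270, 0.952 and 2.45 CPM in the supernatants. The highest pull-downs were GDX HFD 22 (40.9 CPM), sham HFD 13 (14.1 CPM), GDX HFD 6 (12.3 CPM) and sham chow 23 (11.3 CPM), so that each group held at least 1 of them, and the pull-down was higher in 18 of 20 samples. Liver cells are the other main source of Ttr, and liver genes moved with it. Across the 20 pull-downs, as deviations of log2 CPM from the group means, the Pearson r of Ttr with 18 liver genes, a list chosen after their values were seen, ran from 0.485 to 0.807, with a median of 0.701. Without the 2 pull-downs farthest from the median of Ttr, it ran from 0.245 to 0.673. Serpina1a (r = 0.807), a liver protease inhibitor, and Bhmt (r = 0.787), a liver enzyme, were among the 5 genes most like Ttr of 14058 tested.

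For the 8 other choroid plexus genes, r with Ttr ran from -0.369 to 0.27 in the pull-downs. Folr1, Aqp1, Kcne2 and Sostdc1 among them were below the filter there, where a few tags set the level. The liver genes were picked with their values known, so these ranges cannot be compared as like with like. The 18 liver genes summed to between 2.39 and 350 CPM in the pull-downs, with a median of 17.6 CPM, and to between 1.83 and 8.54 CPM per supernatant. Alb, serum albumin, had 138 CPM in GDX HFD 22, 79.2 CPM in sham HFD 13 and 45.2 CPM in sham chow 23. GDX HFD 6 was the exception, with 12.3 CPM of Ttr and a liver sum of 7.57 CPM. By group the liver sum had medians of 8.15 CPM (sham chow), 36.6 CPM (sham HFD) and 22.1 CPM (GDX HFD). Without samples 22, 13 and 23, the 3 with the most Alb, Ttr was higher in the pull-down by 1.77 ± 0.34 (adjusted p = 2.04e-05). That run kept pull-downs GDX HFD 17, sham HFD 9 and sham HFD 18, with 36.3, 28.4 and 27 CPM of Alb. No supernatant had more than 2.02 CPM of Alb, so the run did not take liver RNA out of the comparison. The part that liver RNA has in the Ttr values was not tested further.

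**Figure D3:**
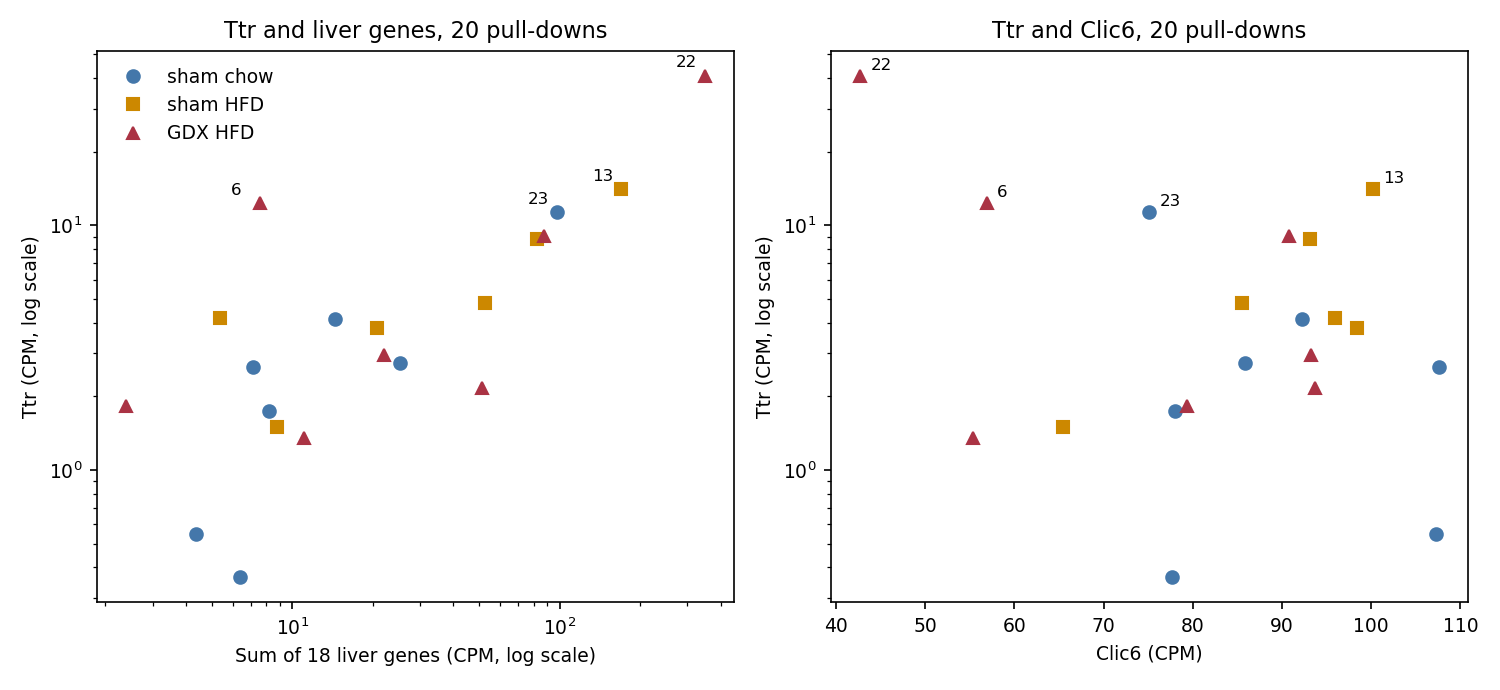
The left panel plots Ttr (vertical, CPM, log scale) against the summed level of 18 liver genes (horizontal, CPM, log scale) in the 20 pull-downs, and the right panel plots Ttr against Clic6 (CPM), with symbols for the 3 groups. Ttr and the liver sum are highest together in GDX HFD 22, while GDX HFD 6 has 12.3 CPM of Ttr at a liver sum of 7.57 CPM, and Clic6 is lowest in GDX HFD 22. The GDX HFD 22 pull-down also had the lowest sum of astrocyte markers (36250 CPM), and Gm42418 took 15.1% of its counts.

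The second question was whether diet or orchiectomy changed these genes. No ventricular gene passed the test in any of the 6 treatment comparisons. In edgeR at an adjusted p under 0.05, 0 of 22 genes passed in the pull-downs for HFD against chow, 0 of 22 for GDX against sham on HFD and 0 of 22 for GDX HFD against sham chow, where 0%, 0% and 0.0142% of all 14059 genes tested did. In the supernatants 0 of 27 passed in each comparison, as did 0% of all 14628 genes. DESeq2 and limma voom also called 0 of these genes in each case. At an unadjusted p under 0.05 the numbers of ventricular genes were 1, 3 and 1 in the pull-downs, where 1.71%, 6.53% and 11.1% of all genes reached it, and 0, 2 and 1 in the supernatants, where 1.41%, 3% and 2.26% did. The further tanycyte, cilium, multiciliation and choroid plexus lists also gave 0 calls in all 6 comparisons.

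The errors bear on how large a change could have gone unseen, but an SE is not itself that size. The median SE of a log2 fold change over these genes lay between 0.21 in the supernatants and 0.27 in the pull-downs, and the largest SE was 0.82, for Ttr in the diet comparison of the pull-downs. A change of several SE could also miss the threshold after adjustment over all genes. Foxj1 at 0.46 ± 0.12 for GDX against sham in the pull-downs had an adjusted p of 0.722 in edgeR. A missed threshold does not show that a gene stayed the same.

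The 3 genes with the smallest p in each comparison are given as not called. For HFD against sham chow in the pull-downs these were Foxj1 (-0.28 ± 0.12), Frzb (-0.50 ± 0.30) and Mia (-0.59 ± 0.38), each with an adjusted p of 0.9999. For GDX against sham on HFD they were Foxj1 (0.46 ± 0.12, adjusted p = 0.722), Rarres2 (-0.28 ± 0.13) and Cfap126 (-0.62 ± 0.30). Foxj1 had a lowest, median and highest level of 15.9, 18.2 and 21.3 CPM in sham chow, 12.0, 15.5 and 18.3 CPM in sham HFD and 17.6, 19.5 and 26.0 CPM in GDX HFD pull-downs. The sham HFD and GDX HFD ranges met only between 17.6 and 18.3 CPM. In the supernatants Foxj1 had medians of 9.91, 9.55 and 9.27 CPM in the same order, and the log2 fold change for GDX against sham was 0.03 ± 0.16. The pull-down comparisons of HFD with chow and of GDX with sham share the sham HFD libraries.

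For GDX HFD against sham chow in the pull-downs, the smallest p belonged to Cfap126 (-0.80 ± 0.29, adjusted p = 0.370), Crym (-0.97 ± 0.48, adjusted p = 0.449) and Ttr (1.56 ± 0.79, adjusted p = 0.464). Cfap126 had 1.39, 3.38 and 5.27 CPM in sham chow, 2.14, 3.29 and 4.88 CPM in sham HFD and 1.14, 2.26 and 3.01 CPM in GDX HFD, so the groups overlapped. Crym had medians of 3.56, 3.58 and 1.93 CPM and highest levels of 14.7, 9.08 and 8.33 CPM, and the groups overlapped. Ttr had medians of 2.64, 4.5 and 2.94 CPM, close to each other beside highest values of 11.3, 14.1 and 40.9 CPM, and its estimate without samples 22, 13 and 23 was 1.31 ± 0.61 (adjusted p = 0.713). Without the 4 pull-downs rich in Gm42418, GDX HFD 22 among them, it was 0.81 ± 0.75 (adjusted p = 0.736).

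In the supernatants the diet comparison was led by Hdc (0.20 ± 0.13), Foxj1 (-0.23 ± 0.16) and Dnah5 (-0.67 ± 0.49). GDX against sham was led by 1110017D15Rik (-0.39 ± 0.17), Enpp2 (0.24 ± 0.11) and Frzb (-0.31 ± 0.16), all with an adjusted p of 0.945. Enpp2 had 148, 195 and 236 CPM in sham chow, 158, 192 and 206 CPM in sham HFD and 167, 222 and 244 CPM in GDX HFD. GDX HFD against sham chow was led by Dio2 (0.65 ± 0.28, unadjusted p = 0.0271), Rax (0.51 ± 0.25) and Crym (-0.51 ± 0.28), all with an adjusted p of 0.9999.

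Dio2 had 6.54, 7.96 and 12.9 CPM in sham chow, 7.74, 8.68 and 19.7 CPM in sham HFD and 7.43, 10.5 and 23.3 CPM in GDX HFD supernatants, and the groups overlapped. Its 4 highest supernatants were among the 6 with the most astrocyte RNA. The summed astrocyte markers had medians of 1820, 2201 and 2440 CPM in the 3 groups, and GDX HFD 22, 11 and 6 and sham HFD 1 had 23.3, 20.0, 19.1 and 19.7 CPM of Dio2. Without the 6 supernatants above 3000 CPM of these markers, a choice made after seeing the data, the difference in Dio2 was 0.24 ± 0.14. Dio2 had r = 0.895 with the summed markers, and these 6 held its 4 highest values. The smaller estimate therefore cannot show what part astrocyte RNA has. The part of astrocyte RNA in the difference was not tested further.

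**Figure D4:**
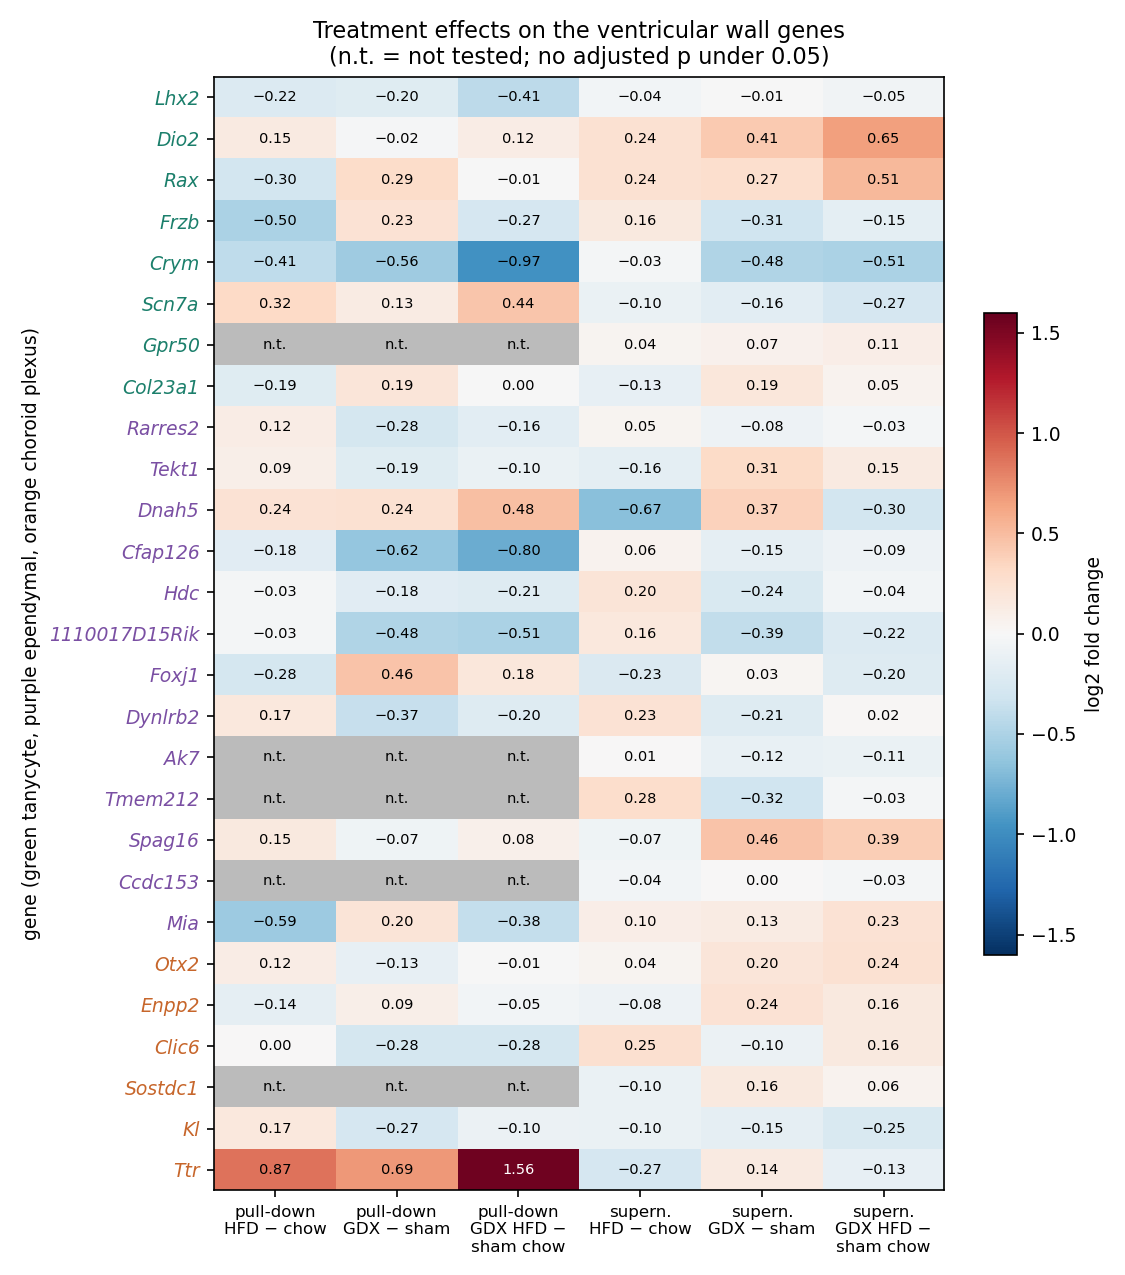
Each cell gives the log2 fold change (colour scale and number) of 1 ventricular gene in 1 of 6 treatment comparisons, pull-downs on the left and supernatants on the right, with grey for genes not tested. None had an adjusted p under 0.05, and the darkest cell is Ttr in GDX HFD against sham chow (1.56).

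Whether a treatment effect differed between the fractions was tested as an interaction. It was called for 0 of 27 genes with diet and 0 of 27 with orchiectomy in edgeR, where 0% and 0.0064% of all 15629 genes passed, and DESeq2 and limma voom called 0 as well. In each, 1 gene reached an unadjusted p under 0.05, against 2.55% and 4.43% of all genes. With diet the smallest p belonged to Frzb (-0.66 ± 0.31), Dnah5 (0.91 ± 0.65) and Mia (-0.69 ± 0.51), as the change in the pull-down minus that in the supernatant. With orchiectomy it belonged to Foxj1 (0.41 ± 0.20), Tekt1 (-0.51 ± 0.28) and Otx2 (-0.35 ± 0.20).

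The third question was whether genes of a class vary together between samples. Pearson r of log2 CPM deviations from the group means is given as a description over 20 libraries of a fraction, which share a scaling. In the supernatants r exceeded 0.5 in 28 of 351 pairs of ventricular genes (7.98%), where 13.5% of all pairs of tested genes did. Within classes it did so in 0 of 28 tanycyte, 7 of 78 ependymal and 2 of 15 choroid plexus pairs, and the class medians lay between -0.07 and 0.00. In the pull-downs it did so in 8 of 231 pairs (3.46%), where 9.14% of all pairs did.

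Some pairs had high values. In the supernatants Dynlrb2 and Cfap126, both of cilia, had r = 0.772, and Dnah5 and Spag16 had 0.695, while Foxj1 and Ccdc153 had -0.618. Across classes, Scn7a and Kl had 0.847 and Rax and Rarres2 had 0.793. In the pull-downs Dio2 and Otx2 (0.77) and Tekt1 and Cfap126 (0.717) had the highest values. Otx2 had 8850 counts in the count table and 59 in the authors' second table. Its r values here and below therefore rest on 1 of 2 tables that differ. Deviations did not carry over between the fractions of 1 sample number: r between pull-down and supernatant had a median of 0.01 over the 27 genes and exceeded 0.5 in none, where the median over all genes was 0.02 and 3.15% exceeded 0.5.

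For 1 lead gene per class, the 5 genes most like it were taken from the 14627 others tested in the supernatants. For Rax they were Gstt1 (r = 0.894), a glutathione transferase, Sept2 (0.803), Kank1 (0.794), Rarres2 (0.793) and Gng5 (0.787). For Ccdc153 they were Gm20518 (0.838), Calcrl (0.773), Vti1a (0.756), Cenpn (0.746) and Rpl31-ps16 (0.743), none of which is on the cilium lists. For Ttr they were Atp23 (0.848), Sh3bp5 (0.836), Fam173a (0.824), Gm43778 (0.821) and Sgsm2 (0.82). Without the 2 libraries farthest from the median of the lead gene, these 15 values lay between 0.551 and 0.841. The 15 genes were picked by value, and Rax and Ttr had medians of only 11.5 and 10 counts per supernatant. Within its own class, Rax had r of 0.421 with Dio2 and between -0.393 and -0.03 with the other tanycyte genes. Ccdc153 ran from -0.618 with Foxj1 to 0.509 with Cfap126, and Ttr from -0.518 with Kl to 0.566 with Sostdc1.

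Astrocyte RNA in the supernatant went with some ventricular genes and not with others. Across the 20 supernatants the summed astrocyte markers had r = 0.942 with Clic6, 0.895 with Dio2, 0.695 with Otx2, 0.614 with Rax and 0.587 with Rarres2. These were the 5 of 27 genes over 0.5, where 5.84% of all genes were, and without the 2 farthest libraries the 5 values lay between 0.507 and 0.912. Clic6 had 2.19 CPM in sham chow 7, where the markers summed to 1676 CPM, and 11.0 CPM in sham HFD 1, where they summed to 4224 CPM. Of these 5 genes, 4 were at least 2-fold higher in the pull-down, and Rax did not pass between the fractions. Ccdc153 (0.02), Tmem212 (0.13), Sostdc1 (-0.16) and Ttr (-0.16) had values near 0, and Ak7 had -0.696. The part that astrocyte RNA has in the supernatant levels of these genes was not tested. In the pull-downs 2 of 22 genes were over 0.5, Clic6 (0.599) and Spag16 (0.589), where 9.58% of all genes were. Without the 2 farthest pull-downs these values were 0.316 and 0.42, and Enpp2 had -0.696 over all 20.

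**Figure D5:**
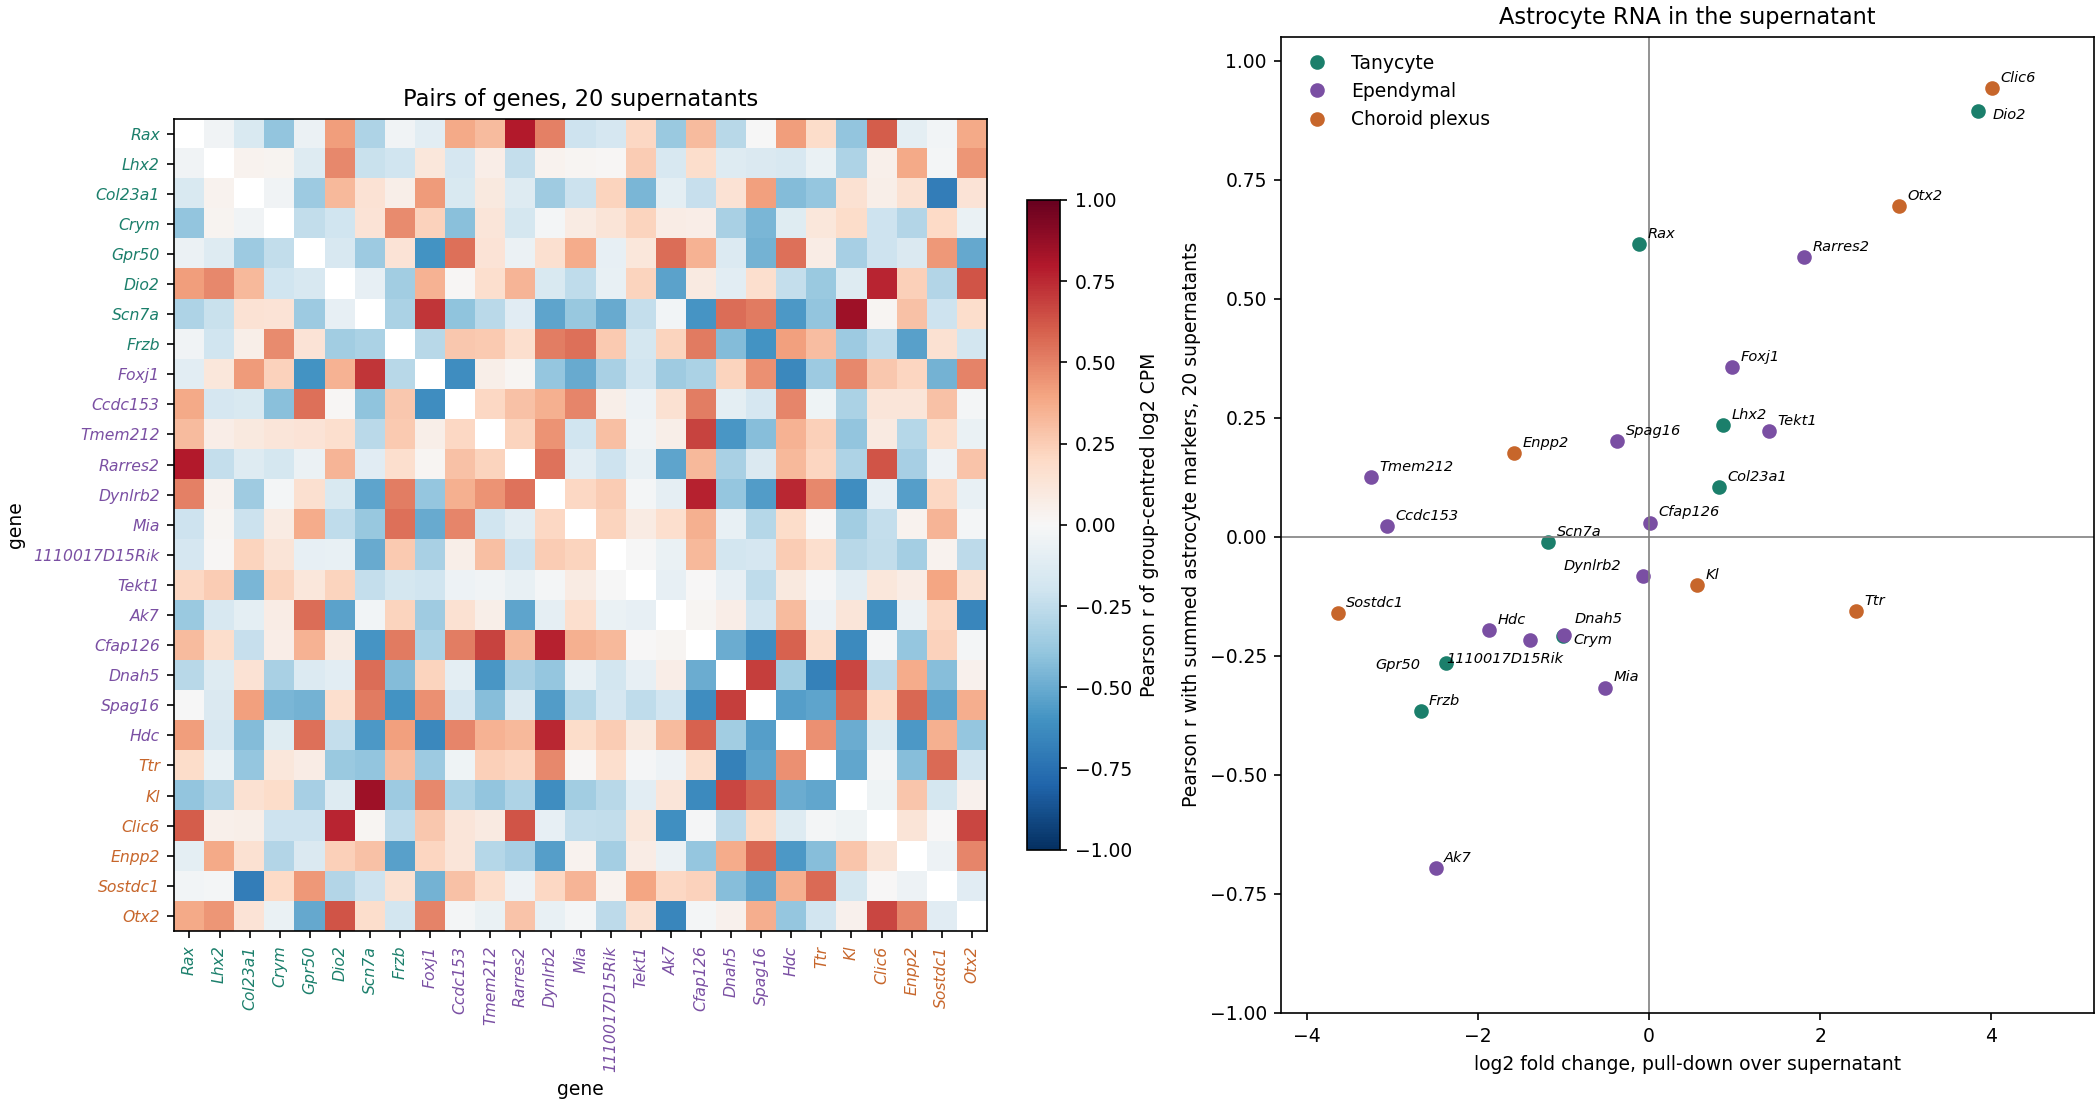
The left panel shows Pearson r (colour) for each pair of the 27 ventricular genes over 20 supernatants, and the right panel plots each gene's r with the summed astrocyte markers in the supernatants (vertical) against its log2 fold change between fractions (horizontal). No class forms a block on the left, and on the right Clic6, Dio2, Otx2 and Rarres2 lie to the upper right with r of 0.942, 0.895, 0.695 and 0.587, while Crym and Dnah5 share nearly the same point.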

How the data were processed

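Messenger RNA captured on oligo-dT beads was sequenced as 3' tags (QuantSeq FWD), per the labels' protocols. Trim Galore 0.6.4, Salmon 1.9.0 and GRCm38 are named in the submitters' processing notes; no source used here names the annotation or strand setting. The authors deposited estimated counts per gene, of which 12.7% of non-zero values are not whole. A second deposited table, titled TPM, holds a signal scaled per library without division by length. Brought back to counts, it equals the first within 0.01 counts for 28 of the 31 genes, and it was only compared. Libraries held 7714834 to 20792175 counts (pull-downs) and 8739276 to 12931869 (supernatants).

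Counts were rounded and tested with edgeR 4.0.16 (R 4.3.3): TMM, filterByExpr with a minimum count of 10, a robust quasi-likelihood fit and Benjamini-Hochberg adjustment over all genes. Fractions were fitted apart for treatment (3 group means) and together for fraction and interactions (6 group means). SE came from the F statistic. CPM used 1 TMM scaling over 40 libraries. Correlations used a prior count of 2. The fits were tested on simulated data. DESeq2 1.42.0, limma 3.58.1 voom, other scaling and left-out libraries were alternatives. The 31 genes and the gene lists were chosen with earlier results of these data known. Named genes were those called, up to 3 per class and direction; where none was called, the 3 with the smallest p; the 5 most correlated with Rax, Ccdc153 and Ttr in the supernatants; and up to 3 per direction of each wider list, of which some are not reported here. Other pairs, Foxj1 in the supernatants, Alb and the liver genes were named after their values were seen.

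The labels give each pull-down and its supernatant the same sample number. Their deviations from group means over all genes correlated by -0.0688 to 0.153 (median 0.0326), with 5 of 20 pairs over 0.1 and 6 of 20 pull-downs closest to their own number. No 2 libraries held identical values.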

Additional observations from a re-analysis of the deposited data

Results flagged for a closer look

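Within groups, 18 of 147 sets of 6 or 7 libraries (12.2%) had 1 library far from the rest by Dixon's criterion. Of these, 14 were at the high and 4 at the low end. The criterion's rate of about 1 in 20 holds for normally distributed values. It was applied to CPM without logs, genes with few counts included, so the share cannot be read as an excess over chance. Among tanycyte genes in the pull-downs, Dio2 was 222 CPM in sham chow 7, where the other 6 had 119.7 to 162 CPM, and Crym was 8.33 CPM in GDX HFD 10, where the others had 1.66 to 3.31 CPM. In the supernatants Crym was high in sham chow 19 (19.1 CPM) and sham HFD 1 (17.3 CPM), Dio2 was high in sham HFD 1 (19.7 CPM, the others 7.74 to 9.30 CPM), and Col23a1 was low in GDX HFD 2 (5.57 CPM).

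Among ependymal genes, Rarres2 was low in the sham HFD 1 pull-down (24.3 CPM, the others 37.0 to 41.3 CPM) and high in the GDX HFD 22 supernatant (10.6 CPM). Foxj1 was low in the GDX HFD 2 supernatant (5.04 CPM, the others 8.57 to 10.8 CPM). The marker 1110017D15Rik was high in the sham chow 12 pull-down (4.18 CPM) and the sham HFD 20 supernatant (9.39 CPM), Dnah5 in the sham chow 12 (5.84 CPM) and sham HFD 18 (3.84 CPM) supernatants, and Spag16 in the sham HFD 13 pull-down (1.75 CPM).

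Among choroid plexus genes, Ttr was 40.9 CPM in the GDX HFD 22 pull-down, where the others had 1.35 to 12.3 CPM, and 11.3 CPM in sham chow 23, where the others had 0.364 to 4.15 CPM. Kl was high in the sham chow 19 pull-down (7.63 CPM) and Enpp2 low in the GDX HFD 17 supernatant (167 CPM, the others 219 to 244 CPM). Sample number 1 had 3 of the 18, and numbers 2, 12, 19 and 22 had 2 each.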

How the results depend on the processing

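The 23 ventricular genes called between the fractions stayed at 23 with RLE scaling, DESeq2, limma voom, without the 4 samples rich in Gm42418 and without mitochondrial genes. With the sample number as a replicate block, the pairing gave 23 between the fractions and 0 in both interactions, so it changed no call count. Leaving out each library in turn gave 23 to 24, and leaving out the 3 samples with the most Alb gave 24; the added gene was Folr1, which then passed the filter. Without the low-count filter the count was 23 as well, 11 higher and 12 lower, as Folr1 entered and Mia dropped out (log2 fold change -0.46 ± 0.21, adjusted p = 0.0535). All 6 treatment comparisons and both interactions stayed at 0 under each alternative run, each left-out library included. Of 1836 single-gene values under alternatives, 1835 kept their direction and side of the threshold, Mia being the other. Most of these values came from runs that left out a single library, and genes far from the threshold had little room to change side. Pairs with r over 0.5 numbered 28 to 29 in the supernatants and 8 to 9 in the pull-downs. Low counts limit Rax, Mia, Dnah5 and Spag16, and Ttr in the supernatants. They also limit Gpr50, Ccdc153, Tmem212, Ak7 and Sostdc1 in the pull-downs, where a few tags set the level.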

Other observations

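In the pull-downs Rax had a different set of nearest genes than in the supernatants. Over 20 pull-downs, as group-centred log2 CPM, it was most like Usp2 (r = 0.899), a deubiquitinase whose message cycles with the circadian clock, Smad1 (0.86), Per3 (0.794), a clock gene, Rasgrp2 (0.767) and Fkbp5 (0.756), a glucocorticoid response gene. Without the 2 libraries farthest from the median of Rax these values lay between 0.673 and 0.858. They were picked by value out of 14058 genes, Rax had a median of 11.5 counts per pull-down, and the second deposited table lists it at 0, so the values are given as they stand.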
